A study of Mus musculus with 15 samples.

Results

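Gene expression was compared between the striatum of mice that lack Slc1a4 (knockout, KO) and the striatum of wild type mice (WT). The comparison rests on 3 KO libraries (replicates 2, 3 and 4) and 4 WT libraries (replicates 5 to 8), as labelled. A gene was taken if 3 or more of these 7 libraries held a normalized count of 10 or higher, which kept 16274 of the table's 26595 genes. The series sequenced RNA of cerebral cortex and striatum from both genotypes, and the 8 cortex libraries (4 KO, replicates 1 to 4, and 4 WT, replicates 5 to 8) are used here for the variance of each gene and for its level in cortex. Every animal was a male of the C57Bl/6 strain aged 5 months, and the KO genotype is given as SLC1a4 -/-. The labels give neither the deleted part of the gene nor whether the deletion was made in all cells from birth. The 7 striatum libraries hold 22990233 to 25697792 counted reads, so that their depths are close. Whether each replicate is its own animal is not stated in the labels, and the p-values therefore reflect the spread among these libraries, which may be technical.

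Slc1a4 encodes ASCT1, a sodium-dependent transporter that exchanges small neutral amino acids such as serine, alanine, cysteine and threonine across the plasma membrane of astrocytes and neurons. L-serine is made from glucose mainly in astrocytes, and it is the source of glycine, of D-serine (a co-agonist of NMDA receptors) and of sphingolipids. The striatum consists mostly of GABAergic projection neurons of the direct pathway (marked by Drd1) and the indirect pathway (marked by Drd2). It borders on the cortex, the septum, the pallidum and the lateral ventricle, whose choroid plexus makes transthyretin (Ttr).

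The targeted gene followed the labels in all 7 libraries. Slc1a4 (ENSMUSG00000020142, on chromosome 11 of GRCm38 from 20302180 to 20332713, on the minus strand) stood at 344, 311 and 158 normalized counts in KO replicates 2, 3 and 4 and at 1237, 1660.3, 1726 and 1509 in WT replicates 5 to 8. The lowest KO value belonged to replicate 4 and the lowest WT value to replicate 5, and the groups were far apart. The fall was -2.56 on the log2 scale (SE 0.20, limma adjusted p = 2.4e-05), and the exact permutation test, two-sided, gave p = 0.029, the smallest value that 3 against 4 libraries allow. Without KO replicate 4, WT replicate 5 and WT replicate 8, which stand apart below, it was -2.37 (limma adjusted p = 3.3e-07). That fit kept only KO replicates 2 and 3 and WT replicates 6 and 7 of striatum, beside the 8 cortex libraries. The libraries left out were chosen by their own marker scores, so the smaller p is not stronger evidence. Fitted on the 7 striatum libraries alone, with 5 instead of 11 residual degrees of freedom, the size was the same (-2.56) and the limma adjusted p was 0.088.

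The libraries of a group were not alike in their tissue makeup. Ttr, the transthyretin of the choroid plexus, stood at 4710.1, 623 and 77905 normalized counts in KO replicates 2, 3 and 4 and at 130616, 682, 3604 and 4723 in WT replicates 5 to 8. KO replicate 4 and WT replicate 5 were each more than an order of magnitude above the other libraries, 1 in each genotype, so the groups overlapped fully and Ttr was not called (log2 fold change -0.03, SE 1.56).

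**Figure D1:**
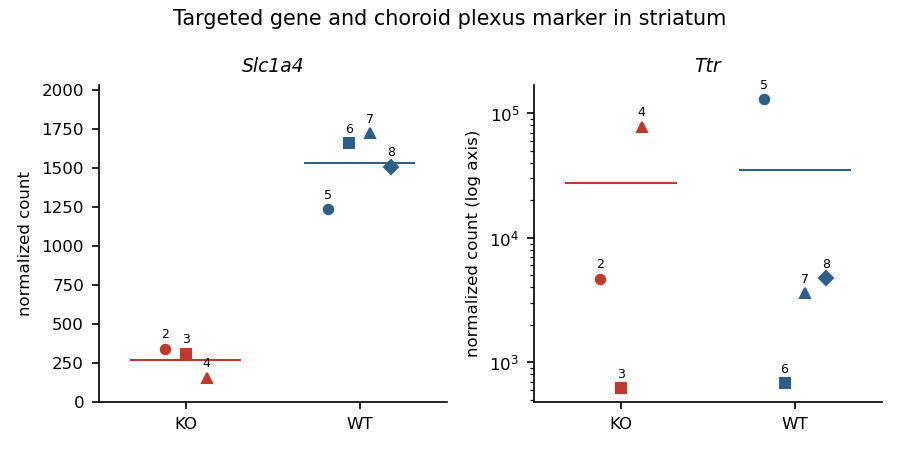
Normalized counts of Slc1a4 (left, linear axis) and Ttr (right, log axis) in the 3 KO and 4 WT striatum libraries. Points are libraries labelled by replicate number and horizontal lines are group means. Slc1a4 separates the genotypes, with 158 to 344 in KO and 1237 to 1726 in WT. Ttr is high in KO replicate 4 and WT replicate 5.

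A score per library was taken for each list of marker genes, as the mean over its tested genes of the log2 deviation from the mean of the 7 libraries. The score of 23 choroid plexus genes was -0.57, -1.46 and 2.53 in KO replicates 2, 3 and 4 and 2.94, -1.78, -0.90 and -0.76 in WT replicates 5 to 8. Markers of neighbouring regions (21 genes of thalamus, septum and pallidum, such as Tcf7l2, Zic1 and Lhx9) scored -0.86, -0.14 and 1.19 in KO replicates 2, 3 and 4 and -0.49, -0.07, -0.30 and 0.68 in WT replicates 5 to 8, so that KO replicate 4 and WT replicate 8 were the highest. Both lists had high and low libraries in either genotype. The scores of 27 genes of cortical excitatory neurons (such as Neurod2, Slc17a7 and Tbr1) were 0.71, 0.26 and 0.32 in KO replicates 2, 3 and 4 and -0.70, -0.44, -0.09 and -0.06 in WT replicates 5 to 8, and here the groups did not overlap: all KO libraries were above all WT libraries. The summed normalized count of those cortical genes was 27369.9 to 39081 in KO and 22940.2 to 26682 in WT, and 0 of them were at 0 in any of the 7 libraries.

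**Figure D2:**
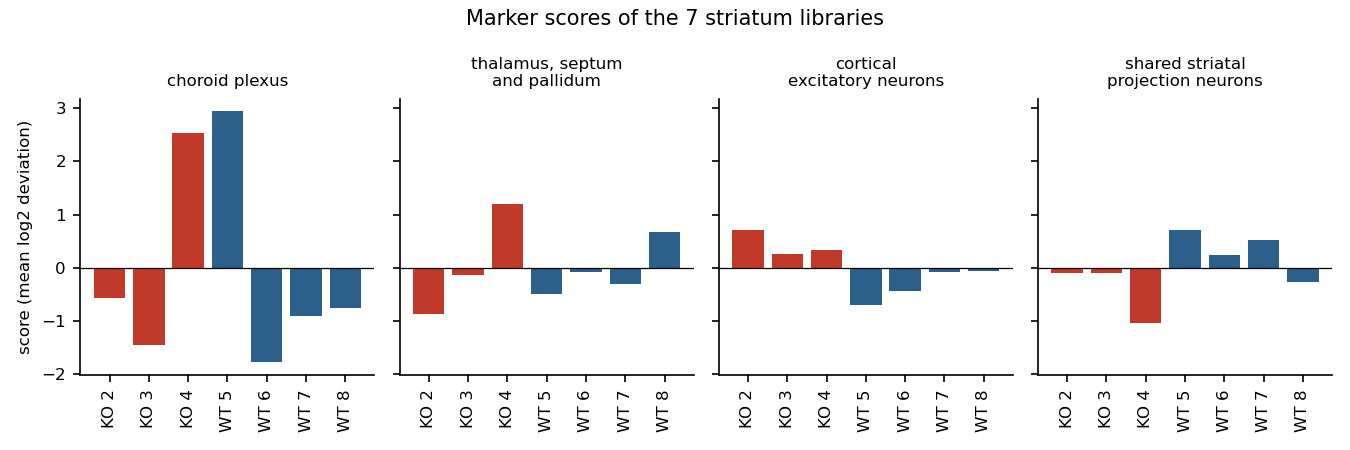
Score of 4 marker lists in each striatum library (mean log2 deviation from the mean of the 7 libraries, KO red, WT blue). The choroid plexus score is high in KO replicate 4 and WT replicate 5, and the score of neighbouring regions in KO replicate 4 and WT replicate 8. The cortical score is above 0 in the 3 KO libraries and below 0 in the 4 WT libraries.

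The striatal identity of the tissue was clear in every library. Genes shared by striatal projection neurons stood at a median of 209.6 to 557% of their level in WT cortex, with Drd1 at 4149.6, 4314 and 1714 in KO and 7618, 5311, 6458 and 3218 in WT, and Drd2 at 2163, 2035 and 928 in KO and 3841, 2610.3, 3362 and 1748 in WT. KO replicate 4 was the lowest and WT replicate 5 the highest for both dopamine receptors. Cortical excitatory genes stood at a median of 28.1, 20.9 and 22.2% of their WT cortex level in KO replicates 2, 3 and 4, and of 11.4 to 17.7% in the WT libraries. In bulk tissue, fewer cells of a type and less RNA per cell cannot be told apart.

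With limma and a threshold of 0.05 on the adjusted p (Benjamini-Hochberg), 14 genes were called between KO and WT striatum, which is 0.086% of the 16274 tested. Of these, 13 were higher in KO (0.0799% of the genes tested) and 1, Slc1a4, was lower. In order of p the higher genes were Scube1, Gm9954, Ptgs2, Nwd2, Smoc2, Slit2, Rtn4rl2, Lrg1, Nptxr, Ptchd2, Tnks1bp1, Neurod2 and Arhgef25. They include secreted proteins, receptors, an enzyme and a transcription factor, and for each of the 13 all KO libraries were above all WT libraries (over all genes tested, 3.94% had that order). The 13 were called for their small p in these same libraries, so that order is no further support. Limma on the 7 striatum libraries alone called 0 genes, with 1140 at an unadjusted p below 0.05. On the same 7 libraries edgeR called 0 (1195 at an unadjusted p below 0.05) and DESeq2 33, among them 13 of the 14. With a separate average variance for each tissue limma called 2 genes, Scube1 and Slc1a4. When 1 of the 15 libraries was left out, Scube1, Slc1a4, Gm9954 and Nwd2 were called in all 15 fits, Ptgs2 in 13, Smoc2 in 11, Lrg1 in 8 and Ptchd2 in 6. Slit2 and Rtn4rl2 were called in 5, Nptxr and Neurod2 in 4, and Tnks1bp1 and Arhgef25 in 2.

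**Figure D3:**
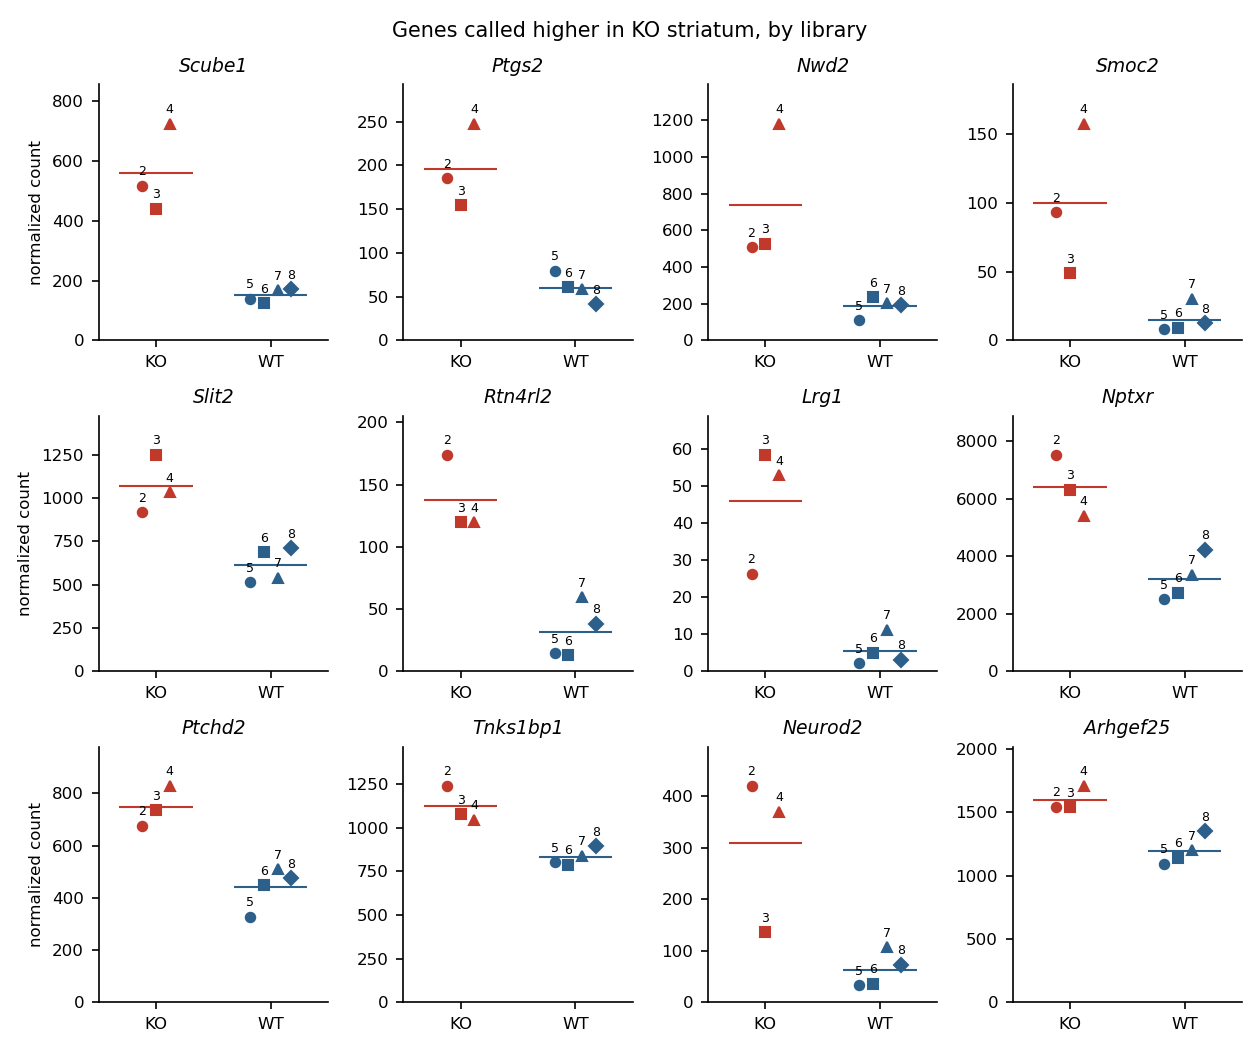
Normalized counts of the 12 named genes called higher in KO striatum, besides the predicted gene Gm9954. Points are libraries labelled by replicate number, lines are group means, and all axes start at 0. In each panel the 3 KO libraries lie above the 4 WT libraries, and KO replicate 4 is the highest for Scube1, Ptgs2, Nwd2, Smoc2, Ptchd2 and Arhgef25.

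The start sites of 8 of the 14 called genes have a promoter window in the RefSeq table (GRCm38.p6, 250 bases before to 50 after the start). They were searched on both strands for 4 motifs: TGACGTCA (the cAMP response element), CAGATG (an E-box bound by NeuroD factors, chosen because Neurod2 is among the called genes), TGAGTCA (the AP-1 site) and TATAAA (the TATA box). Among all 32851 windows, 1.79%, 17.2%, 5.2% and 13.6% hold a match of these motifs. CAGATG occurred in the windows of Neurod2 (from base -118) and Nwd2 (from base -210), and TATAAA in those of Slit2 (from base -28) and Lrg1 (from base +12), counted from the start site. The windows of Slc1a4, Scube1, Ptgs2 and Rtn4rl2 held none of these letters, and no window held 2 matches, so no motifs overlapped. Shown are the 250 bases before the start site for Scube1, which had the smallest p, and for the 3 genes with a match there. Capitals mark the match, and each is written 5′ to 3′ on the strand of its gene.
Scube1, chr15:83725040-83725289, minus strand: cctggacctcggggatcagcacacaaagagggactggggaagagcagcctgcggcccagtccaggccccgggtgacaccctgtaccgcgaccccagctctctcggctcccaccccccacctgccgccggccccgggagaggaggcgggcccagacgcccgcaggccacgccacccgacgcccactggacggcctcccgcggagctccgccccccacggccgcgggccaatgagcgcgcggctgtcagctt
Slit2, chr5:47982905-47983154, plus strand: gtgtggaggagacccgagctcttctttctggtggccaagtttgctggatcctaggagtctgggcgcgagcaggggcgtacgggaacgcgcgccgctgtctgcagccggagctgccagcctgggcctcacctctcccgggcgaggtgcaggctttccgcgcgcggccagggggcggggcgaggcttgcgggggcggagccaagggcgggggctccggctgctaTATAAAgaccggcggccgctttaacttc
Nwd2, chr5:63648853-63649102, plus strand: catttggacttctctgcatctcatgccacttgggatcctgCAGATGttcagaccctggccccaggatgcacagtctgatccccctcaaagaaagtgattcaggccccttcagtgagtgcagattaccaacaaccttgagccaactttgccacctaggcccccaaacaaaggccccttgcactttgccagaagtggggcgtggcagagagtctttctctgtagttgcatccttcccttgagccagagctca
Neurod2, chr11:98329646-98329895, minus strand: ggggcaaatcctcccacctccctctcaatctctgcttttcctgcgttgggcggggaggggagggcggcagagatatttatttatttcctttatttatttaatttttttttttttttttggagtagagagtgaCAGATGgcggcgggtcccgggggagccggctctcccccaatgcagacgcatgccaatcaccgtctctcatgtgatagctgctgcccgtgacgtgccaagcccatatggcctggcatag
The Scube1 stretch is 75.2% G and C, against 69.6% for Slit2, 53.6% for Nwd2 and 52.8% for Neurod2.

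Secreted and matrix proteins made up the first group of called genes. Scube1 (ENSMUSG00000016763, GRCm38 chromosome 15, positions 83604999 to 83725021, minus strand), a secreted and membrane-tethered protein with EGF-like and CUB domains, stood at 517, 440.2 and 725 normalized counts in KO replicates 2, 3 and 4 and at 139.9, 124, 167 and 171 in WT replicates 5 to 8. The 3 KO libraries all stood far above the 4 WT libraries, which lay close together. Its rise was 1.87 on the log2 scale (95% interval 1.57 to 2.18, SE 0.14, limma adjusted p = 2.4e-05). The call ended in the striatum libraries alone (limma adjusted p = 0.088) and with the cortical score as the only covariate (1.58, limma adjusted p = 0.073). Without the 3 libraries that stand apart the rise was 1.72 (limma adjusted p = 3.2e-05).

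Smoc2 (ENSMUSG00000023886, GRCm38 chromosome 17, positions 14279506 to 14404790, plus strand), a calcium-binding matrix protein, was at 93.1, 49.0 and 158 in KO and 7.96, 9.14, 30.3 and 12.7 in WT (log2 fold change 2.69, SE 0.40, limma adjusted p = 0.023). KO replicate 3 was the lowest of its group and WT replicate 7 the highest of the other, and the gap between the groups was smaller than the spread of the KO libraries. Slit2 (ENSMUSG00000031558, GRCm38 chromosome 5, positions 47983138 to 48307733, plus strand), a ligand of Robo receptors that repels growing axons, was at 919.7, 1252 and 1033 in KO and 515, 689, 542 and 711 in WT (log2 fold change 0.80, SE 0.13, limma adjusted p = 0.029). For Slit2 the high KO library was replicate 3, and KO replicate 4 lay between replicates 2 and 3. Lrg1 (ENSMUSG00000037095, GRCm38 chromosome 17, positions 56119678 to 56122001, minus strand), a secreted leucine-rich glycoprotein of the acute phase that brain endothelium also makes, had few reads: 26.3, 58.4 and 52.9 in KO and 2.27, 5.08, 11.2 and 3.18 in WT. Its change of 2.97 (SE 0.47, limma adjusted p = 0.029) was the steepest of the 13, on the scale of log2 of the value plus 1. Lrg1 was not called without the 3 libraries that stand apart (2.22, limma adjusted p = 0.060).

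Receptors and synaptic proteins formed the second group. Nptxr (ENSMUSG00000022421, GRCm38 chromosome 15, positions 79786351 to 79804766, minus strand), the transmembrane member of the neuronal pentraxins that cluster AMPA receptors at synapses, was the most abundant called gene, at 7539, 6322 and 5409 in KO and 2501, 2741, 3359.7 and 4225 in WT (log2 fold change 1.02, SE 0.16, limma adjusted p = 0.029). Both groups spread widely, and WT replicate 8 came nearest to the KO libraries. Rtn4rl2 (ENSMUSG00000050896, GRCm38 chromosome 2, positions 84871924 to 84886710, minus strand), a receptor of the Nogo receptor family, was at 174, 120.0 and 119.6 in KO and 14.8, 13.2, 59.5 and 38.2 in WT (log2 fold change 2.34, SE 0.37, limma adjusted p = 0.029). WT replicates 5 and 6 were the lowest, WT replicates 7 and 8 stood above them, and the groups did not overlap. Ptchd2 (ENSMUSG00000041544, GRCm38 chromosome 4, positions 148240264 to 148287965, minus strand), a sterol-sensing membrane protein related to Dispatched, was at 677, 735 and 829.9 in KO and 328, 448, 510.4 and 475 in WT (log2 fold change 0.78, SE 0.13, limma adjusted p = 0.029). WT replicate 5 was the lowest library and the other 3 WT libraries lay close together.

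Ptgs2 (ENSMUSG00000032487, GRCm38 chromosome 1, positions 150100031 to 150108227, plus strand), the inducible cyclooxygenase that starts prostaglandin synthesis and is switched on by neuronal activity, was at 185, 154 and 248 in KO and 79.6, 61.0, 58.3 and 41.3 in WT (log2 fold change 1.70, SE 0.25, limma adjusted p = 0.020). KO replicate 4 was the highest and WT replicate 8 the lowest, both of them libraries rich in neighbour-region markers. Without the 3 libraries that stand apart the change of Ptgs2 was 1.49 (limma adjusted p = 0.016). Neurod2 (ENSMUSG00000038255, GRCm38 chromosome 11, positions 98325415 to 98329648, minus strand), a transcription factor of cortical and hippocampal excitatory neurons, was at 420.4, 137 and 369 in KO and 33.0, 36.6, 107 and 73.1 in WT (log2 fold change 2.30, SE 0.38, limma adjusted p = 0.030). KO replicate 3 and WT replicate 7 nearly met. Neurod2 was not called without the 3 libraries that stand apart (1.92, limma adjusted p = 0.052).

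Nwd2 (ENSMUSG00000090061, GRCm38 chromosome 5, positions 63649102 to 63810546, plus strand), a neuronal protein with NACHT and WD repeat domains, was at 507, 527 and 1182 in KO and 111, 236, 202 and 192 in WT (log2 fold change 1.92, SE 0.28, limma adjusted p = 0.020). KO replicate 4 was far above the other KO libraries, all 3 were above WT, and without the 3 libraries that stand apart the change was 1.24 (limma adjusted p = 0.0044). The predicted gene Gm9954 (ENSMUSG00000104868, GRCm38 chromosome 5, positions 63646170 to 63650894, minus strand) overlaps the start of Nwd2 on the opposite strand and was at 136, 111 and 147 in KO and 45.5, 57.9, 65.1 and 64.7 in WT (log2 fold change 1.16, SE 0.14, limma adjusted p = 0.0051). Since the strand setting of the counting is not given in the sources used here, the reads of this pair cannot be told apart. The smallest changes were in Tnks1bp1 (ENSMUSG00000033955, GRCm38 chromosome 2, positions 85048022 to 85073048, plus strand), a protein that binds tankyrase, at 1240.5, 1078 and 1045 in KO and 802, 788, 839 and 892 in WT (log2 fold change 0.43, SE 0.07, limma adjusted p = 0.029), and in Arhgef25. Arhgef25 (ENSMUSG00000019467, GRCm38 chromosome 10, positions 127182525 to 127190083, minus strand), a guanine nucleotide exchange factor, was at 1547, 1543 and 1713 in KO and 1094, 1143, 1204 and 1351 in WT (log2 fold change 0.42, SE 0.07, limma adjusted p = 0.049).

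None of the 13 higher genes was called between KO and WT cortex, and a test of the difference between tissues called 1 of them. In cortex, Scube1 was at 2135 ± 134 in KO and 2116 ± 120.2 in WT (SD, n = 4 each). Its KO effect was 0.01 in cortex against 1.87 in striatum, a difference of 1.86 (SE 0.19, limma adjusted p = 0.0018), the 1 gene of 16274 (0.00614%) called for it. For the other 12 higher genes the KO effect in cortex lay between -0.03 (Ptchd2) and 0.52 (Lrg1), and the difference between tissues was not called (limma adjusted p from 0.71 for Gm9954 to 0.97). The fall of Slc1a4 was -2.61 in cortex and -2.56 in striatum, with a difference of 0.05 (95% interval -0.54 to 0.64). With the cortical score as the only covariate, the difference between tissues was called for 0 genes, so Scube1 was not called there.

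All 13 higher genes had more counts in WT cortex than in WT striatum, a comparison that shares the WT striatum libraries with the one above and is given as levels only. WT striatum held 3.40% of the WT cortex level for Neurod2, 4.17% for Rtn4rl2, 4.51% for Smoc2 and 7.11% for Scube1, and 56.7% for Slit2, the highest of the 13. The excess of KO over WT striatum amounted to 8.94% of the WT cortex level for Arhgef25, 13.3% for Tnks1bp1, 13.4% for Neurod2, 14.2% for Rtn4rl2 and 15.9% for Nptxr. It was 19.4% for Scube1, 21.6% for Ptgs2, 25.5% for Smoc2 and 27.6% for Ptchd2. The excess was larger for Nwd2 (37.3%), Slit2 (41.9%) and Lrg1 (88.3%). The cortical marker score was also higher in every KO library than in every WT library. Fits with this score as a covariate are given below, where its part and that of the genotype cannot be told apart.

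With the choroid plexus and neighbour-region scores as covariates, limma called 1174 genes: 688 higher in KO (4.23% of those tested) and 486 lower (2.99%). All 14 genes called without covariates were among them, and their fold changes were close to those without covariates: 1.84 for Scube1, -2.50 for Slc1a4, 3.01 for Lrg1 and 2.28 for Neurod2. The standard errors were smaller for 13 of the 14 (all but Neurod2), as with Slc1a4 (0.11 against 0.20) and Slit2 (0.09 against 0.13). The count of 1174 depended on 1 library: without WT replicate 5 it was 25 (21 higher and 4 lower), of which 24 were among the 1174. Of the 14 genes, 5 were called there: Scube1, Slc1a4, Gm9954, Nwd2 and Slit2. Unless stated, the calls with these 2 covariates given below are from the fit with all 15 libraries, WT replicate 5 included. With the covariates on the 7 striatum libraries alone, limma called 512 genes, 399 of them among the 1174, and 13 of the 14. Leaving out KO replicate 4, WT replicate 5 and WT replicate 8 instead of using covariates gave 250 called genes, 175 higher and 75 lower. This fit kept only KO replicates 2 and 3 and WT replicates 6 and 7 of striatum. In it 12 of the 14 were called (all but Lrg1 and Neurod2).

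With the cortical score added as the third covariate, a fit made after the data were seen, 4 genes were called: Scube1, Slc1a4, Slit2 and Ttr. Slc1a4 then differed by -2.59 (SE 0.24, limma adjusted p = 0.0012), Scube1 by 1.21 (SE 0.15, limma adjusted p = 0.016) and Slit2 by 1.14 (SE 0.15, limma adjusted p = 0.017). The estimates of Lrg1 (3.10, SE 0.95), Ptgs2 (1.89, SE 0.47) and Nwd2 (1.56, SE 0.45) were near their size without covariates and were not called (limma adjusted p = 0.24, 0.19 and 0.22). Those of Neurod2 (-0.03, a member of the cortical list itself), Rtn4rl2 (0.41), Nptxr (0.35), Smoc2 (0.89), Gm9954 (0.56), Tnks1bp1 (0.18), Arhgef25 (0.20) and Ptchd2 (0.45) were smaller by more than 1.5 times, as was that of Scube1. The value of Ttr in this fit (-2.64, limma adjusted p = 0.044) is for a member of the choroid plexus list, which built one of the covariates. The calls of Scube1 and Slit2 depended on which covariates stood beside the cortical score. When that score was the only covariate, Slc1a4 was the single called gene (-3.05), and none of the 13 higher genes passed. Scube1 was then at 1.58 and Slit2 at 0.88, and the adjusted p from limma was 0.073 for the former and 0.53 for the latter. Since the cortical score does not overlap between KO and WT libraries, the genotype and the cortical content of the libraries cannot be told apart in these 7 libraries.

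**Figure D4:**
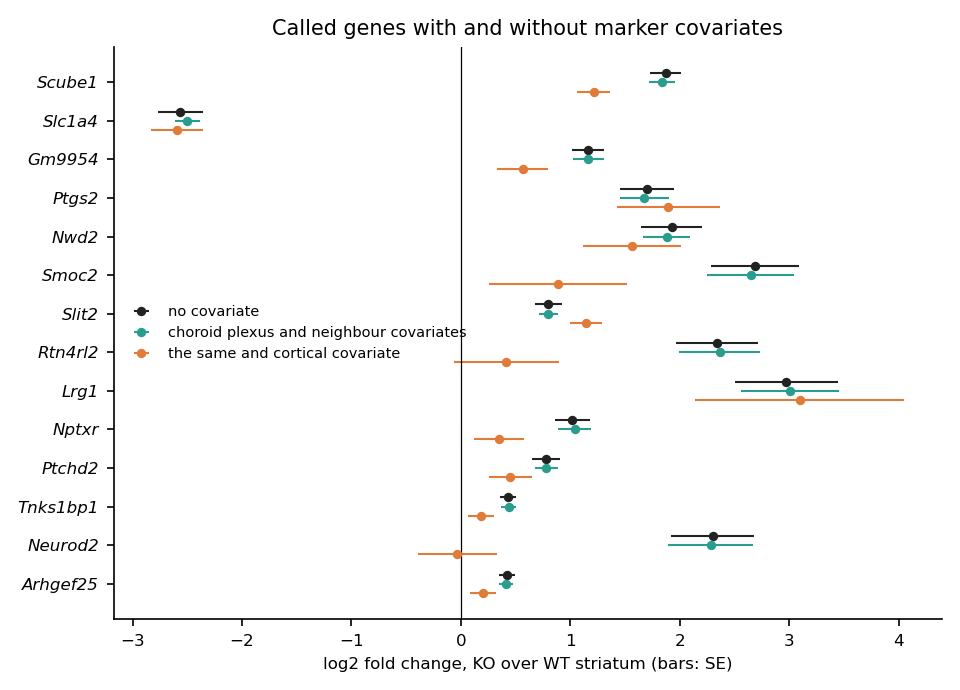
Log2 fold change of the 14 called genes between KO and WT striatum in 3 limma fits, with bars of 1 SE. The fits without covariates (black) and with choroid plexus and neighbour-region scores (green) nearly coincide. With the cortical score added (orange), Slc1a4, Scube1, Slit2, Ptgs2, Nwd2 and Lrg1 lie away from 0 and Neurod2 lies at -0.03.

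Next in order of p came genes that did not pass the test and are given as values (mean ± SD, n = 3 KO and 4 WT, limma adjusted p from 0.063 to 0.12 for these 20). They were taken among genes whose groups do not overlap, so that order is no finding. Among those with higher values in KO, Nptx1, a secreted neuronal pentraxin, stood at 3768 ± 1176 in KO and 1450.4 ± 454 in WT, Slc30a3, the zinc transporter of glutamatergic vesicles, at 298 ± 134 in KO and 78.5 ± 47.2 in WT, and Unc13b, a vesicle priming protein, at 648 ± 15.2 in KO and 446 ± 58.9 in WT. Sstr3, a somatostatin receptor of neuronal cilia, stood at 303 ± 51.9 in KO and 122 ± 48.0 in WT, and the calcium-binding copine Cpne6 at 2168 ± 352 in KO and 1279.9 ± 259 in WT. WT replicate 5 held the lowest value of Nptx1, Slc30a3, Sstr3 and Cpne6. Lingo1, a co-receptor of the Nogo receptor, was at 2987 ± 391 against 2044 ± 328, Mapk11, a p38 kinase, at 412 ± 41.2 against 219 ± 73.2, and Prdm8, a transcriptional regulator, at 225 ± 126 against 49.5 ± 17.8. Chrd, the BMP antagonist chordin, was at 293 ± 78.7 against 170.1 ± 12.5, and Cars, the cysteinyl-tRNA synthetase, at 825 ± 75.0 against 643 ± 40.6.

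Among the 10 with lower values in KO, the signalling genes Rgs4, a regulator of G protein signalling, at 11064 ± 1954 in KO and 17986 ± 4084 in WT, and Fzd2, a Wnt receptor, at 359 ± 40.5 in KO and 518 ± 25.5 in WT, were joined by Spock3, a matrix proteoglycan of striatal projection neurons, at 10126 ± 326 in KO and 15135 ± 2367 in WT. The KO libraries of Spock3 lay within 9936 to 10502, below every WT library. Ppp2r5d, a regulatory subunit of protein phosphatase, was at 3064 ± 269 against 3789 ± 190.3, Arpc1a, a subunit of the Arp complex that nucleates actin, at 3205 ± 246 against 4002 ± 283, and Mxi1, a MAX-binding repressor, at 1749 ± 168 against 2245 ± 128. Kctd8, an auxiliary subunit of GABA-B receptors, was at 457 ± 56.6 against 671 ± 70.6, the secreted C1qtnf4 at 1808 ± 139 against 2469.9 ± 282, and the amidase Ntan1 at 724 ± 16.8 against 915 ± 86.1. Tmem14a, a membrane protein, was at 489, 537 and 527 in KO and 692, 643, 694 and 686 in WT. With the choroid plexus and neighbour-region covariates all 20 genes were called (of all genes tested, 4.23% were called higher and 2.99% lower). The log2 fold changes were 0.36 (Cars) to 2.07 (Slc30a3) for the 10 higher ones and -0.70 (Rgs4) to -0.31 (Arpc1a) for the 10 lower ones. The 20 were taken for their small p in the same libraries, so these calls are no further support. Mea1 overlaps Ppp2r5d, Pdxdc1 overlaps Ntan1 and Thpo overlaps Chrd on the opposite strand, so those counts are uncertain.

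Genes of striatal projection neurons had lower values in KO as a list, and 0 passed the test singly. Of 30 genes shared by these neurons, 29 had a log2 fold change below 0, with a median of -0.73 where the median of all genes tested was 0.00. The dopamine-regulated phosphoprotein Ppp1r1b (DARPP-32) was at 18789, 17390.2 and 8580.2 in KO and 40449.7, 24788, 30714 and 18406 in WT, and the cAMP-regulated Arpp19 at 10443, 9699 and 4972 and 18287, 13597, 15571 and 9929. In both genes KO replicate 4 was the lowest library and WT replicate 5 the highest, while KO replicates 2 and 3 were close to WT replicate 8. The fit with the 2 covariates called 14 of the 30 lower and 0 higher (2.99% and 4.23% of all genes tested). Among them were Arpp19 (-0.76, limma adjusted p = 0.0020), Spock3 (-0.57, 0.0089) and Arpp21, which binds calmodulin and RNA (-0.82, 0.010). The median of the list was -0.49 without the 3 libraries that stand apart and -0.39 without KO replicate 4 alone. It was -0.12 with the cortical score added, where 0 members were called. Without WT replicate 5 the fit with 2 covariates called 4 genes lower in all, Slc1a4 included.

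Genes of either pathway also had lower values, and 0 passed the test. Of 9 direct pathway genes 9 had values below 0 (median -0.53, -0.19 without KO replicate 4), with the muscarinic receptor Chrm4 at 549 ± 237 against 805 ± 205, the neuropeptide precursor Tac1 at 2503 ± 1063 against 4305 ± 1437 and the mitochondrial serine carrier Sfxn1 at 1927 ± 284 against 2158 ± 192. Of 8 indirect pathway genes 7 were below 0 (median -0.64, -0.26 without KO replicate 4), with the receptor Gpr6 at 667 ± 282 against 1378 ± 477, enkephalin (Penk) at 13724 ± 7123 against 22887 ± 6138 and the adenosine receptor Adora2a at 2937 ± 1048 against 5916 ± 2226. Chrm4 and the dynorphin precursor Pdyn were called lower with the 2 covariates (-0.55 and -0.38), and 0 indirect pathway genes were (2.99% of all genes tested). With the same covariates on the 7 striatum libraries alone, 3 of 9 direct and 5 of 8 indirect pathway genes were called lower. In that fit 226 of all 16274 genes tested were called lower. Gad2, the glutamate decarboxylase present in all striatal GABAergic neurons, was at 24782, 22989.7 and 13511 in KO and 16570.0, 24100.3, 20123 and 17506 in WT, with a log2 fold change of 0.03.

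Cortical excitatory neuron genes had the opposite sign. Of 27 tested, 20 were above 0 (median 0.71, 0.52 to 0.80 over the fits that left out 1 striatum library), and Neurod2 was the 1 called. Slc17a7, the vesicular glutamate transporter of cortical neurons, was at 8072, 3689.6 and 7651 in KO and 1275, 1308, 2379 and 3705 in WT, and Neurod6, a bHLH factor, at 544, 159.6 and 719 and 56.9, 25.4, 147 and 105. KO replicates 2 and 4 were the highest libraries for both, and KO replicate 3 overlapped WT replicate 8 for Slc17a7. Tbr1, a factor of deep-layer neurons, was at 638, 682 and 286 and 75.1, 210.3, 298 and 270.3. With the 2 covariates 15 members were called higher (4.23% of all genes tested), Tbr1 with the smallest p (1.49, limma adjusted p = 8.5e-04), and 3 lower (2.99%): Itpka (-0.56), Kcnh3 (-0.50) and Lamp5 (-0.58). These 3 stood in WT striatum at 57.7, 53.1 and 30.5% of their WT cortex level, against 4.71% for Tbr1.

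**Figure D5:**
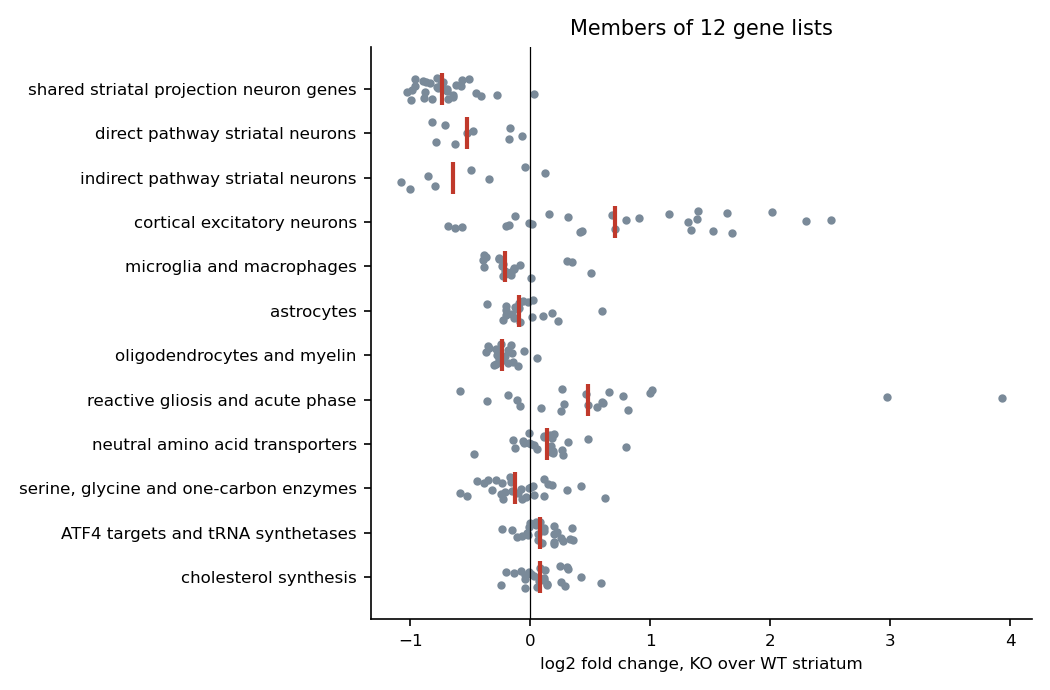
Log2 fold change between KO and WT striatum of each tested member of 12 gene lists (grey points) with the median of the list (red line). Projection neuron lists lie below 0 and cortical excitatory genes spread above 0. Metabolic lists lie near 0, with medians between -0.13 and 0.14.

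Reactive gliosis and acute-phase genes had a median of 0.48 over 21 tested members, 16 of them above 0, and the scores of the groups did not overlap (0.51, 0.10 and 0.48 in KO replicates 2, 3 and 4 and -0.13, -0.23, -0.44 and -0.29 in WT replicates 5 to 8). Lrg1 was the 1 called. Lcn2, the lipocalin of reactive astrocytes, was at 47.1, 135 and 70.9 in KO and 1.14, 9.14, 8.97 and 2.12 in WT (log2 fold change 3.93, SE 0.92, limma adjusted p = 0.13, not called), and Socs3, a feedback inhibitor of cytokine signalling, at 65.7, 58.4 and 50.8 and 34.1, 40.6, 33.7 and 38.2. All KO libraries were above all WT libraries for these 2 genes, as for 5 of the 21 members, where 3.94% of all genes tested had that order. Gfap, the intermediate filament of reactive astrocytes, was at 11192, 2653 and 7100.4 and 3428, 4485, 3617 and 4293, with KO replicate 2 the highest and KO replicate 3 the lowest library. With the 2 covariates Lrg1, Lcn2 (4.03) and Socs3 (0.66) were called higher, 3 of 21 (4.23% of all genes tested). Without the 3 libraries that stand apart 0 members were called.

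Other glial lists held no called gene. Of 20 microglia and macrophage genes 16 were below 0 (median -0.21, -0.25 to -0.14 when 1 striatum library was left out), and 8 of the 20 had all KO libraries below all WT libraries, where 4.27% of all genes tested did. The purinergic receptor P2ry12 was at 1162, 1020.2 and 1018 in KO and 1436, 1416, 1513 and 1238 in WT, and the adaptor Tyrobp at 223 ± 28.9 against 290.0 ± 24.1. Both were called lower with the 2 covariates (-0.38 and -0.40) and not without. They were among 3 of the 20 called lower there (2.99% of all genes tested). Of 20 astrocyte genes 0 were called in either fit (median -0.09, -0.20 to -0.04 when 1 library was left out), with the sphingosine phosphate receptor S1pr1 at 3703 ± 350.5 against 4743 ± 391 and the connexin Gja1 at 5855 ± 1099 against 6687 ± 632. Myelin genes were below 0 for 19 of 20 (median -0.23), with the oligodendrocyte glycoprotein Mog at 2312 ± 1011 against 2829 ± 295. Leaving out KO replicate 3 turned that median to 0.01, and leaving out KO replicate 4 gave -0.51. Their scores were -0.22, -0.62 and 0.47 in KO replicates 2, 3 and 4 and 0.16, 0.02, -0.03 and 0.22 in WT replicates 5 to 8, so KO libraries lay on both sides of WT.

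The other neutral amino acid transporters did not pass the test in either direction (0 of 24 tested). Their median was 0.14 (0.10 to 0.21 when 1 striatum library was left out), with 17 above 0. Slc1a5 (ASCT2), the closest relative of ASCT1, was at 49.3, 57.4 and 58.2 normalized counts in KO and 92.1, 58.9, 70.7 and 88.0 in WT (log2 fold change -0.47, SE 0.17, limma adjusted p = 0.24). All KO libraries were below all WT libraries, with WT replicate 6 nearest to them. That order held for 1 of the 24 transporters, where 4.27% of all genes tested had it. The glutamine and serine transporter Slc38a5 was at 71.2, 137 and 123 and 63.7, 79.3, 60.6 and 44.5 (log2 fold change 0.79, SE 0.29, limma adjusted p = 0.23), and KO replicate 2 overlapped the WT libraries. Slc7a10 (Asc-1), which carries D-serine and glycine, was at 925 ± 198 against 845 ± 86.6 (log2 fold change 0.11, 95% interval -0.17 to 0.39), and Slc38a2, which is induced by amino acid shortage, at 4877 ± 1151 against 4130.0 ± 1431. The proline transporter Slc6a7 was at 1448 ± 254 against 1055 ± 302. With the 2 covariates the lysosomal transporter Slc36a4 was called higher (0.17, limma adjusted p = 0.032), 1 of 24 (4.23% of all genes tested).

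The glutamate transporters of the same gene family held no called gene: Slc1a2 (GLT-1) was at 82803 ± 14361 against 88196 ± 11095, Slc1a3 (GLAST) at 14880.5 ± 2596 against 15013 ± 1642, Slc1a1 (EAAC) at 3326 ± 322 against 3499 ± 111 and Slc1a6 at 208 ± 41.9 against 163 ± 77.8. Their 95% intervals on the log2 scale were -0.38 to 0.19 for Slc1a2 and -0.30 to 0.26 for Slc1a3. Slc1a7 was at most 3.13 in any library and was not tested.

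Enzymes of serine, glycine and one-carbon metabolism had a median of -0.13 over 30 tested members (-0.14 to -0.09 when 1 striatum library was left out), with 20 below 0 and 0 called. Phgdh, which commits glucose carbon to serine, was at 1369.7, 1279.9 and 1893 in KO and 2145, 1850.3, 1901 and 1913 in WT (log2 fold change -0.39, SE 0.12, limma adjusted p = 0.19). KO replicate 4 lay within the WT range and the other KO libraries below it. Psat1, the next enzyme, was at 3979 ± 794 against 4628 ± 376, and Psph, the last, at 346 ± 36.6 against 389 ± 47.7. Gamt, a methyltransferase of creatine synthesis, was at 208, 204 and 301 and 384, 337, 368 and 318 (log2 fold change -0.58, SE 0.14, limma adjusted p = 0.14), and Cth, which makes cysteine, at 76.6, 80.3 and 99.5 and 124, 117, 107 and 147. For both, all KO libraries lay below all WT libraries, as for 4 of the 30 members, where 4.27% of all genes tested had that order. All KO libraries lay above all WT libraries for 1 member (3.94% of all genes tested). Serine racemase (Srr), which makes D-serine, was at 2001 ± 334 against 2221 ± 261 (95% interval -0.37 to 0.06 on the log2 scale). Gamt (-0.61) and Phgdh (-0.41) were called lower with the 2 covariates, 2 of 30 (2.99% of all genes tested). Of 17 tested genes of sphingolipid and other serine-derived lipid synthesis 0 were called without covariates (median -0.02), with the ceramide synthase Cers4 at 1661 ± 282 against 1348 ± 85.1. With the 2 covariates 1 of the 17 was called higher (4.23% of all genes tested).

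Genes that respond to amino acid shortage through ATF4, with the tRNA synthetases, had a median of 0.08 over 27 members (0.05 to 0.15 when 1 striatum library was left out), 19 of them above 0 and 0 called. Cars was at 911, 772 and 793 in KO and 604, 646, 625 and 698 in WT, Sesn2, an inhibitor of mTORC signalling, at 329 ± 54.7 against 258 ± 35.1, and Atf4 itself at 2048 ± 368 against 1679 ± 174. With the 2 covariates Cars (0.36) and Sesn2 (0.32) were called higher, 2 of 27 (4.23% of all genes tested). Cholesterol synthesis genes had a median of 0.08 over 25, with the squalene epoxidase Sqle at 1464 ± 96.3 against 1177 ± 112, and 0 were called without covariates. With the 2 covariates 3 of the 25 were called higher (4.23% of all genes tested) and 1 lower (2.99%).

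Receptors for glutamate, glycine and GABA showed no call without covariates. The 18 subunits of NMDA, AMPA and kainate receptors had a median of -0.03, with the kainate subunits Grik1 at 278, 362 and 372 in KO and 129.7, 308, 166 and 253 in WT and Grik4 at 695, 593 and 623 and 317, 482, 441 and 568. WT replicate 5 was the lowest library for both. The glycine-binding NMDA subunit Grin3a was at 1921 ± 133 against 1328 ± 416. With the 2 covariates Grik1 (0.72), Grik4 (0.52), Grin3a (0.61) and Grin2d (0.55) were called higher, 4 of 18 (4.23% of all genes tested). Among 7 metabotropic receptors Grm2, an inhibitory autoreceptor, was at 370.2 ± 160.1 against 178 ± 94.7. Among 13 GABA-A subunits Gabrd, which mediates tonic inhibition, was at 1624 ± 510.1 against 2406 ± 471. With the 2 covariates 1 of the 7 metabotropic receptors was called higher. Of the 13 GABA-A subunits 1 was called higher and 2 lower there (4.23% and 2.99% of all genes tested).

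The families of the called genes gave further values. In the Slit and Robo family (10 genes) Slit2 was the 1 called. Slit1 was at 1611, 2397 and 1506 in KO and 524, 1189.8, 945 and 1262 in WT (log2 fold change 0.95, SE 0.27, limma adjusted p = 0.17), and the receptor Robo2 at 2912 ± 667 against 3795 ± 601. Slit1, like Slit2, was highest in KO replicate 3 and lowest in WT replicate 5. Slit1, beside Slit2, was called higher (0.97) and Robo2 lower (-0.35) with the 2 covariates (4.23% and 2.99% of all genes tested). All 3 neuronal pentraxin genes were above 0 (median 1.02): beside Nptxr and Nptx1, the activity-regulated Nptx2 was at 1043, 725 and 879.6 and 684, 751, 699 and 603, with KO replicate 3 inside the WT range. In the Nogo family (9 genes, median 0.00) the receptor Rtn4r was at 412 ± 231 against 232 ± 100.4. Of the other Scube and Smoc genes, Smoc1 was at 471 ± 46.7 against 352 ± 57.5, Scube2 at 82.5 ± 57.8 against 70.9 ± 46.5 and Scube3 at 529 ± 125 against 711 ± 217. Among 14 genes of prostaglandin synthesis and reception (median -0.07), Ptgs2 was the 1 called. Activity-regulated early genes, a list that also holds Ptgs2, had a median of 0.01 over 26, with the neurotrophin Bdnf at 463, 291 and 368 and 23.9, 101, 127 and 156 and the nuclear receptor Nr4a2 at 479.6, 590.4 and 428 and 69.4, 102, 369 and 118. Bdnf and Nr4a2 were lowest in WT replicate 5, and both were called higher with the 2 covariates (2.16 and 1.94). With Ptgs2 they were 3 of 26, where 4.23% of all genes tested were called higher.

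Around Slc1a4 on chromosome 11, 45 of 88 genes within 5 Mb were tested, and 0 were called without covariates. Their median log2 fold change was -0.04 (-0.06 to -0.03 when 1 striatum library was left out), with 17 above 0 and 28 below. With the 2 covariates 3 of the 45 were called higher (4.23% of all genes tested) and 1 lower (2.99%). The scores of these neighbours were 0.02, -0.02 and -0.07 in KO replicates 2, 3 and 4 and 0.05, 0.04, 0.05 and -0.08 in WT replicates 5 to 8, so the genotypes overlapped.

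Markers of the other cell types that a striatal dissection can hold gave these values, with 0 called in any list without covariates. All 18 ependymal genes tested were above 0 (median 0.49), but the median ran from 0.14 without WT replicate 8 to 0.89 without KO replicate 2. Hydin, a protein of motile cilia, was at 87.6, 214 and 203 in KO and 84.2, 79.3, 76.3 and 60.4 in WT. Hypothalamic markers had a median of 0.75 over 19 genes, of 0.24 without KO replicate 3 and of 1.28 without KO replicate 4. Their scores were 0.53, 1.14 and -0.30 in KO replicates 2, 3 and 4 and -2.21, 0.46, -0.28 and 0.65 in WT replicates 5 to 8, so WT replicate 5 was far below all others and KO replicate 3 the highest. The hypothalamic transcription factor Sim1 was at 158, 152 and 31.8 in KO and 3.41, 71.1, 7.85 and 67.8 in WT, and Otp, another, at 114, 258 and 39.2 and 1.14, 97.5, 32.5 and 91.1. Both were called higher with the 2 covariates (limma adjusted p = 0.032 and 0.022), as were Peg10 and Baiap3. These were 4 of 19 hypothalamic genes, where 4.23% of all genes tested were called higher. Choroid plexus genes had a median of 0.27 over 23 genes, and dropping KO replicate 4 turned it to -0.92, while dropping WT replicate 5 gave 1.39. Genes of thalamus, septum and pallidum had a median of -0.04 over 21 (-0.37 to 0.51 when 1 striatum library was left out). Interneurons and cholinergic neurons had -0.26 over 20 (-0.44 to 0.02), with the neuropeptide Vip at 115 ± 69.0 against 48.4 ± 13.7 and parvalbumin (Pvalb) at 1449 ± 774 against 2035 ± 373. Oligodendrocyte precursors had -0.06 over 15 (-0.16 to 0.05), endothelium and pericytes -0.08 over 20 (-0.16 to 0.04) and meninges 0.10 over 19 (-0.27 to 0.36). With the 2 covariates 2 interneuron and cholinergic genes were called higher and 1 lower, and 1 gene of thalamus, septum and pallidum higher and 2 lower. The latter list built the neighbour-region covariate, so the calls of its members are departures from the score of their own list. In the same fit 1 precursor gene was called higher and 1 endothelial or pericyte gene lower (4.23% and 2.99% of all genes tested). For each of these lists the part of cell type content in the genotype comparison was not tested beyond the covariates above.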

How the data were processed

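Cortex and striatum RNA of KO and WT mice was sequenced as single-end reads. The submitters' processing notes list GRCm38, DESeq2 1.12.4, HTSeq 0.6.0, TopHat2 2.1.1, cutadapt 1.1 and FastQC 0.11.5, with no role given. The strand setting and annotation release of the counting are not given in the sources used here. The deposited table holds a normalized signal, which is each gene's read count divided by a factor for the library. In each library 100% of values were within 0.001 of whole reads after division. On the recovered reads edgeR called 17 genes.

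Limma 3.58.1 (R 4.3.3) was fitted with a variance trend to log2 of the value plus 1, with 4 group means over 15 libraries and 11 residual degrees of freedom. P-values were adjusted by Benjamini-Hochberg over 16274 genes, and adjusted p below 0.05 was a call. Marker scores, centred within tissue, served as covariates. Alternatives used edgeR 4.0.16 and DESeq2 1.42.0, and the scripts were tested on simulated data. Positions came from GENCODE and promoter windows from RefSeq. By rule, the text names the called genes, the 10 higher and 10 lower uncalled genes with the smallest p (mean of at least 20, groups not overlapping, no predicted genes), up to 3 members of each list by smallest p, Slc1a4 and Ttr. Other list members, such as Drd1, Ppp1r1b, Tbr1 or Slc7a10, were chosen after their values were seen. The comparison and the gene lists were chosen with earlier results of these data known. Some list members are not reported here.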

Additional observations from a re-analysis of the deposited data

Results flagged for a closer look

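In the WT striatum group of 4, 67 genes and list scores were searched for a library far from the others, which chance flags in about 1 of 20 groups. In 5 cases this was so: Ttr in WT replicate 5 (130616 normalized counts), Tmem14a in WT replicate 6 (643), the score of the SLC1 glutamate transporters in WT replicate 5 (-0.43), the score of metabotropic glutamate receptors in WT replicate 5 (-0.20) and the score of the chromosome 11 neighbours of Slc1a4 in WT replicate 8 (-0.0774). WT replicate 5 holds 3 of these values.

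The difference of Scube1 between KO and WT was larger in striatum than in cortex by 1.86 on the log2 scale (limma adjusted p = 0.0018). With the cortical score as the only covariate, the tissue difference was called for 0 genes. That score was higher in every KO than in every WT striatum library, so it and the genotype cannot be told apart.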

How the results depend on the processing

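The count of 14 called genes depended on the settings. It was 22 with no filter, 0 in the striatum libraries alone by limma or edgeR, 2 with tissue variance weights, 40 with sample weights, 3 with voom, 330 with DESeq2 on all libraries and 33 with DESeq2 on striatum. It was 241 with the choroid plexus covariate, 85 with the neighbour-region covariate, 1174 with both, 1 with the cortical covariate and 0 with that covariate in striatum alone. Both covariates gave 512 in striatum alone, 567 with tissue weights and 1624 with a slope in each tissue, and adding the cortical score gave 4. It was 359 without the choroid-rich, 854 without the neighbour-rich and 250 without all these libraries. Leaving out 1 library gave 4 (WT striatum replicate 6) to 520 (KO striatum replicate 4), and 181 without WT replicate 8. Of the calls, 92.9% were higher in KO, against 50.3% with DESeq2 and 58.6% with both covariates. With both covariates, leaving out 1 library gave 25 to 1352.

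Slc1a4 kept its direction, and its limma adjusted p was 0.088 in striatum alone (-2.56) and 0.090 by edgeR there (-2.51), and it was not called with the cortical covariate there (-3.09). The tissue difference was called for 4 genes with sample weights, 0 with the cortical covariate, 18, 19 and 26 without choroid-rich, neighbour-rich or both kinds of library, 14 by DESeq2, 2 with all 3 covariates and 1 to 8 when 1 library was left out. Neurod2 reversed with the 3 covariates (-0.0324). The causes were not tested. With the replicate number as a block, 13 genes were called, since Arhgef25 was lost (adjusted p = 0.052). KO and WT striatum share no number, and deviations of same-numbered cortex and striatum libraries correlated at -0.02 to 0.14. In 5 of 7 this was the highest within the group (not KO replicate 3 or WT replicate 7), a hint from the data and not the design, and 3 of 7 were above 0.1. Of 1408 list medians under alternatives, 1358 moved by less than 1 SD of the library scores of that list within a genotype. For choroid plexus genes that SD was 2.09 in KO and in WT. Its median could thus go from 0.27 to -0.92 without KO replicate 4 and not count as moved. The count is therefore no measure of stability for lists with uneven libraries. The fits with all 3 covariates, with both in striatum alone, with tissue weights or with separate slopes, and with the cortical covariate in striatum alone were added after the data were seen.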

Other observations

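With the choroid plexus and neighbour-region covariates, genes outside the lists also passed the test, and a few with small p are given here, chosen after their values were seen. Kcnj6, a G protein-gated potassium channel, was at 226, 309.8 and 331 normalized counts in KO replicates 2, 3 and 4 and 47.8, 147, 137 and 166 in WT replicates 5 to 8 (log2 fold change 1.33 with covariates, limma adjusted p = 5.8e-04, and 0.13 without). Plxna1, a semaphorin receptor, was at 2411, 2701 and 2304 and 906, 1851, 1446 and 1918 (0.76, limma adjusted p = 0.0018 with and 0.16 without covariates), and Unc5d, a netrin receptor, at 1421, 2048 and 732 and 384, 1131, 946 and 1009 (0.77, 0.0013 and 0.35). Hras, a small GTPase of growth factor signalling, was lower, at 2347, 2099.8 and 1825 and 3641, 2569.7, 2929 and 2412 (-0.44, 0.0018 and 0.16).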
